A study of Homo sapiens with 4 samples.

Results

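Cholesterol synthesis was followed in U87MG cells silenced for caspase-2 through the enzymes of the pathway and the SREBP machinery that controls their transcription. The set holds 31 genes and was defined by name, from acetyl-CoA condensation to the last sterol reductase. With these come the reductases that feed electrons to the sterol enzymes, the SREBP precursors, and their escort, retention and cleavage factors. It also holds 2 further sterol-linked proteins of the endoplasmic reticulum (ER). Every probe set whose only gene symbol was one of these names was taken, which gave 30 of the 32321 probe sets of the array for 29 of the 31 genes. CYP51A1 had 2 probe sets. HSD17B7 shares its probe set with another symbol and FDFT1 was not matched, so neither was measured here.

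U87MG, an established line derived from a human glioblastoma, was used throughout. The experiment compared 2 arrays of cells transfected with CASP2 siRNA with 2 arrays of cells transfected with control siRNA, all grown in the same serum-containing medium, and replicates are named as biological in the sample titles. The labels name Dharmacon as the supplier of the oligos, and the methods describe its control as a mutated form of the oligo against CASP2. Total RNA was hybridized to Affymetrix Human Gene 1.0 ST arrays, on which several short probes tiled over a transcript are summarised as 1 probe set, and the deposited log2 values were normalized by Robust Multi-Array Average (RMA). Serum is a source of lipoprotein cholesterol. With 2 arrays per group an exact two-sided permutation test cannot give a p below 0.33.

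Cells build cholesterol from acetyl-CoA through mevalonate, isoprenyl diphosphates, squalene and lanosterol, mostly on ER membranes. Transcription of nearly all these enzymes is driven by the SREBP factors, which are made as ER membrane precursors. When ER sterols are low, SCAP carries the precursors to the Golgi, where a pair of proteases releases the active factor, and when sterols are high the INSIG proteins hold SCAP back. Most cholesterol of the brain is made locally, largely by glia. CASP2 has itself been described as a gene influenced by SREBPs.

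The CASP2 probe set had log2 values of 8.79 and 8.52 in CASP2 siRNA cells, against 10.74 and 10.69 in control siRNA cells. The log2 difference was -2.06 (limma SE 0.13, 95% interval -2.40 to -1.72), or 4.17-fold lower, in the direction of the label. Its adjusted limma p was 0.9999, the lowest on the array, so no gene passed the test after adjustment over the whole table. Arrays correlated across probe sets with r = 0.991 within the CASP2 siRNA group, 0.997 within the control group and 0.994 to 0.996 between groups, so the silenced arrays correlated less with each other than with the controls. Of the 6 glioma and mesenchymal markers VIM and CD44 lay above 12.9 on every array, NES and GFAP just above the array medians, and OLIG2 and SOX2 did not exceed them on all arrays. The 6 leukocyte, epithelial and endothelial markers lay under the medians, with PTPRC between 3.67 and 3.76, and of the neuronal markers SYT1 lay between 6.80 and 6.94 on the arrays and RBFOX3 near the medians. In total RNA, fewer cells of a kind and less RNA per cell cannot be told apart.

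SREBP factors bind a sterol regulatory element next to binding sites of NF-Y, which recognizes the CCAAT box, and of Sp1, which recognizes the GC box. The promoters of the members were therefore searched, in the RefSeq windows of 300 bases (250 before and 50 after the transcription start, GRCh38.p14) that cover 26 of the 31 genes in 36 windows. The 250 bases upstream of the start are shown for SREBF2, the gene of the main cholesterol regulator, for HMGCS1, MVK and SC5D, enzymes among those with the largest differences below, and for CYP51A1, whose probe sets disagreed. Capitals mark the element core TCACCCCAC and the CCAAT box in SREBF2, the CCAAT box in HMGCS1 and MVK, the CCAAT box and the E-box CACGTG in SC5D, and the GC box GGGCGG in CYP51A1, each on either strand. The window of HMGCS1 and of SC5D is 1 of the 2 that the gene has.
SREBF2, chr22:41832855-41833104, plus strand: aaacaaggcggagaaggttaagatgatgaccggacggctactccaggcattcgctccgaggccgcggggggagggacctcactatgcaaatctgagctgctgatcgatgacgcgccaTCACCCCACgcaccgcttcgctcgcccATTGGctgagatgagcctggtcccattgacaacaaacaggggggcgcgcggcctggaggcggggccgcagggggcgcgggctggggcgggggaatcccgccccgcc
HMGCS1, chr5:43313413-43313662, minus strand: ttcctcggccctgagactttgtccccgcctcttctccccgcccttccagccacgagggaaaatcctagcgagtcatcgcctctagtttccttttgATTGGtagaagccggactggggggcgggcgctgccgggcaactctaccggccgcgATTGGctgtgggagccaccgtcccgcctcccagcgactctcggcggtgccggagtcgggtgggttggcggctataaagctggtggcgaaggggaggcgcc
MVK, chr12:109573544-109573793, plus strand: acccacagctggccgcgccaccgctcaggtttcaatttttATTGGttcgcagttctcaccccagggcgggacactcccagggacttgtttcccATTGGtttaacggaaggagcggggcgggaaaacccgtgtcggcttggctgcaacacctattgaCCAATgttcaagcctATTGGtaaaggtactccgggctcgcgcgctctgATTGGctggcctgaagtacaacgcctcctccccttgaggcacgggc
SC5D, chr11:121292521-121292770, plus strand: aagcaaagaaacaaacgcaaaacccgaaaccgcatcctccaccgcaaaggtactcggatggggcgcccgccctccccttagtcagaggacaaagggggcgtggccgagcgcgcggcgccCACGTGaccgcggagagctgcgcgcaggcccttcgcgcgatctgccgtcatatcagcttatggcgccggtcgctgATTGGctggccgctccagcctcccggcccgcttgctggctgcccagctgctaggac
CYP51A1, chr7:92134478-92134727, minus strand: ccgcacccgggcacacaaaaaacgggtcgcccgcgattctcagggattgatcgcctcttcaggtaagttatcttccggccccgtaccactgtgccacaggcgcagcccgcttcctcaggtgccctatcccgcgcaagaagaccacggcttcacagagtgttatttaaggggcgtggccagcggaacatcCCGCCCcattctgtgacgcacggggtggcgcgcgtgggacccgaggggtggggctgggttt

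The core TCACCCCAC was found in 1 window of the 36, that of SREBF2, 133 bases before the start, with a CCAAT box on the opposite strand 106 bases before it. The same core was present in 0.430% of all 35116 windows. Allowing any base at the fifth place (TCACNCCAC, which includes the first form) added no member, against 1.13% of all windows. CCAAT was present in 20 of the 36 windows (55.6%), against 34.6% of all windows, and by gene in 18 of 26, of which 14 were among the 17 enzymes covered. MVK and NSDHL held 5 matches each, in a single window, and MSMO1 held 4. PMVK, LBR and CYP51A1 were the enzymes without one. GGGCGG was present in 28 of 36 windows (77.8%) against 44.95% of all, and CACGTG in 6 (16.7%) against 7.26%. The search took exact letters, and forms of the sterol element that differ at other places were not counted. These letter matches describe the windows and do not show binding. The 17 measured genes with a CCAAT box had a median log2 difference of 0.07 in the silenced cells, and the 9 probe sets of the 8 measured genes without one also had 0.07.

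**Figure D1:**
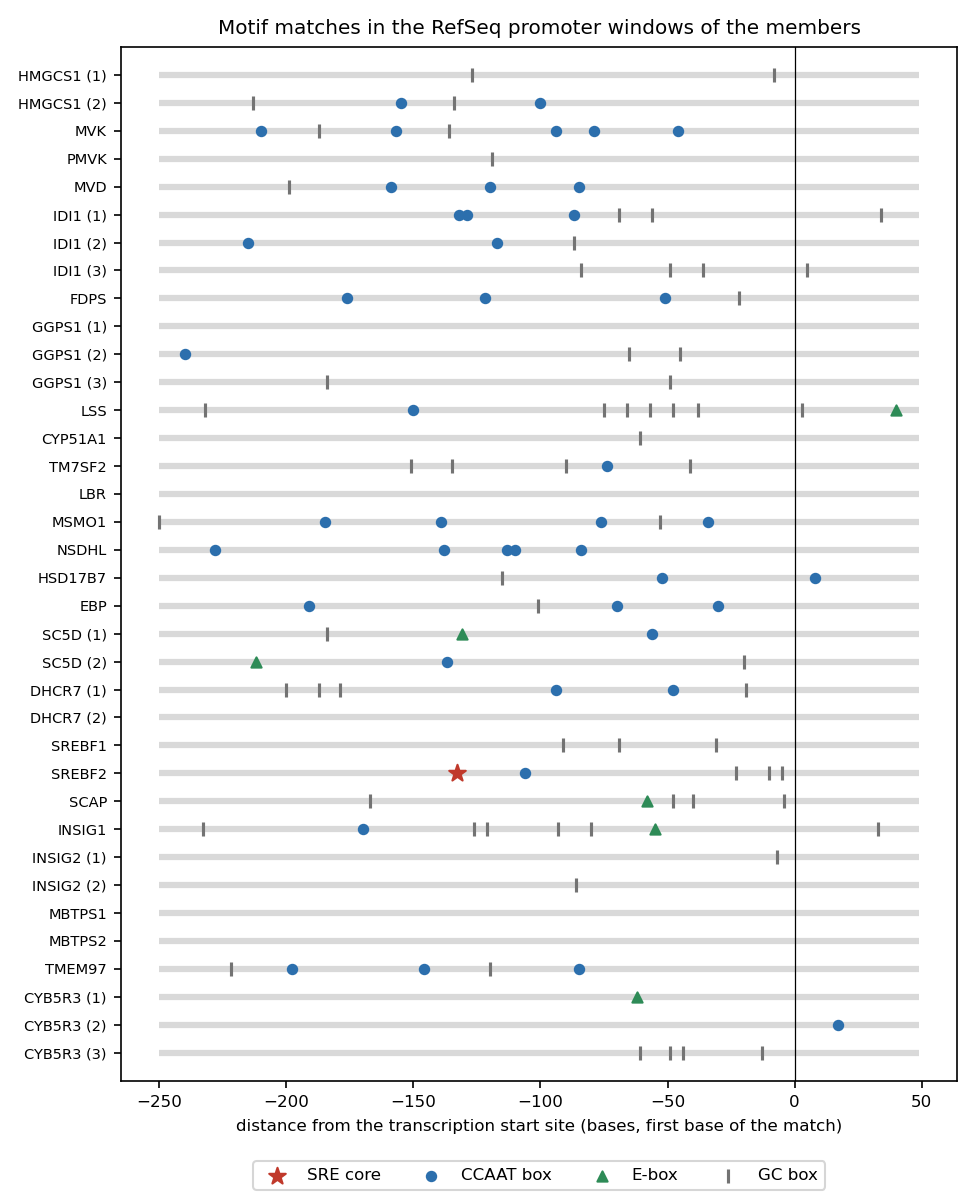
Matches of the SRE core (star), the CCAAT box (circle), the E-box (triangle) and the GC box (tick) in each RefSeq promoter window of the members (y axis; numbers in brackets separate several windows of a gene), by distance of the first base of the match from the transcription start (x axis, bases). CCAAT matches lie in 20 of the 36 windows, and the only SRE core match lies 133 bases before the start of SREBF2.

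In the silenced cells the set differed from the controls by small amounts, tilted to higher values. Of the 30 probe sets, 21 had a log2 difference above 0, against 50.7% of all probe sets, and the median was 0.069, against 0.0022 over the whole table. The number above 0 was 24 after quantile normalization and 17 after centring each array on its median. In 12 both CASP2 siRNA arrays lay above both control arrays (14.5% of all probe sets) and in 5 both lay below (15.1% of all). In 10, all of them higher, the difference between group means exceeded the difference between the arrays of each group, against 9.15% of all probe sets in that direction and 9.13% in the other. These 10 were HMGCS1, MVK, SQLE, one CYP51A1 probe set, TM7SF2, SC5D, CYB5R3, INSIG1, INSIG2 and MBTPS1. The limits the study used were 1.5-fold and an unadjusted p under 0.05, with the p taken here from limma. Past both, 1 of the 30 was higher (0.331% of all probe sets) and 0 were lower (0.362% of all). By unadjusted limma p alone 2 were under 0.05, CYP51A1 and SC5D, against 3.03% of all. None passed the adjusted limma test, as for the whole table (0%).

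The 95% limma interval lay within 1.5-fold of no difference for 29 of the 30 probe sets, against 75.7% of all probe sets and 82.8% of those with 1 symbol. The exception was the CYP51A1 probe set described below. The count was 19 without control siRNA replicate 1 and 10 without control siRNA replicate 2, where the spread is estimated from the CASP2 siRNA arrays alone. The median of the set was 0.0087 without control siRNA replicate 1 and 0.12 without control siRNA replicate 2. In CASP2 siRNA cells replicate 2 lay above replicate 1 in 13 of the 30, with a median of -0.02, as over the whole table (-0.021). The members differed little between these arrays, by a median absolute log2 difference of 0.054 against 0.18 for all probe sets. In control siRNA cells replicate 2 lay above replicate 1 in 22 of the 30, with a median of 0.076, against 0.0048 over the whole table. The set thus differed between the control arrays by as much as between the groups.

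**Figure D2:**
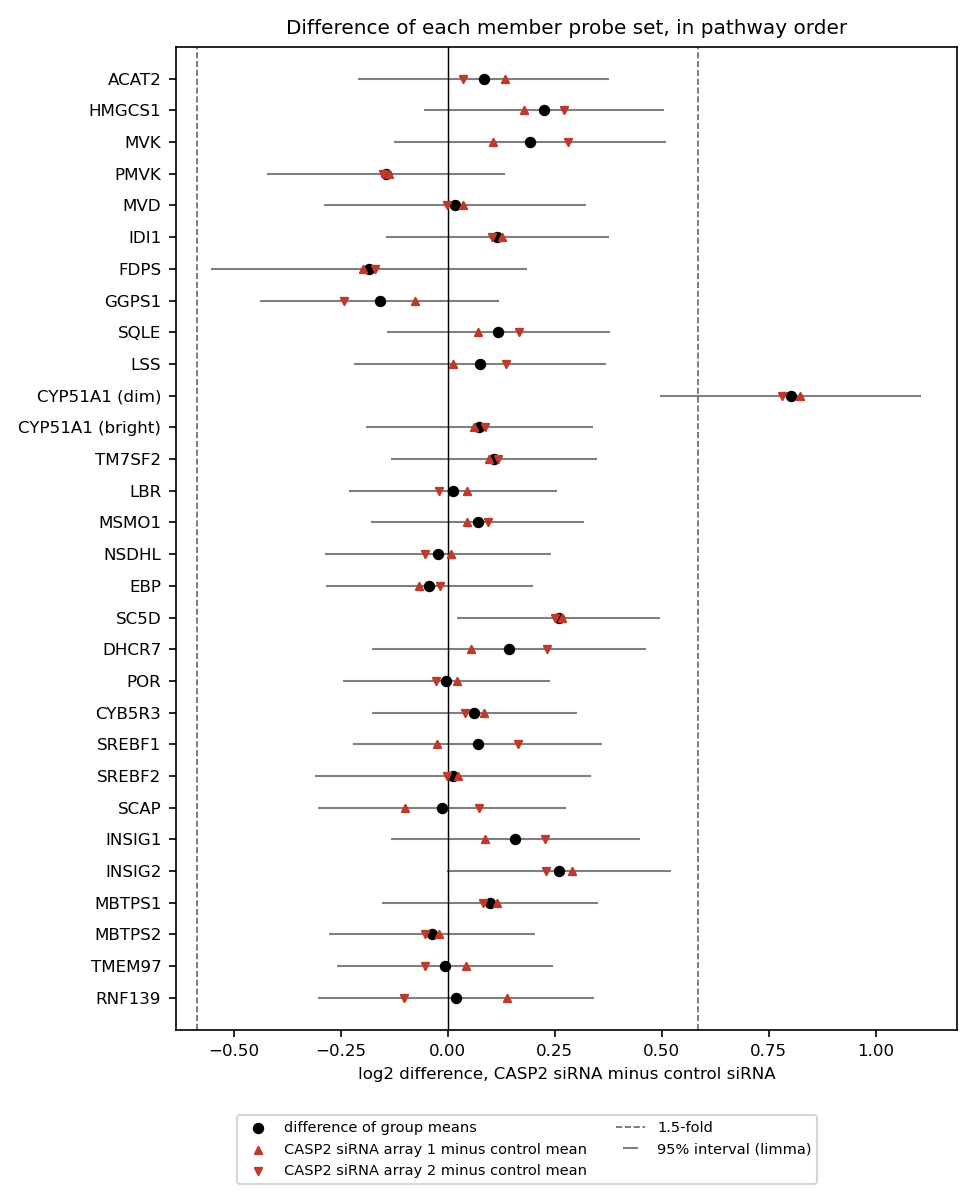
Log2 difference on the x axis, silenced minus control, for the 30 member probe sets in pathway order (y axis), as the difference of group means (black), each CASP2 siRNA array minus the control mean (red) and the 95% limma interval (bars). All intervals lie inside the dashed 1.5-fold lines except that of the dim CYP51A1 probe set, at 0.80.

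**Figure D3:**
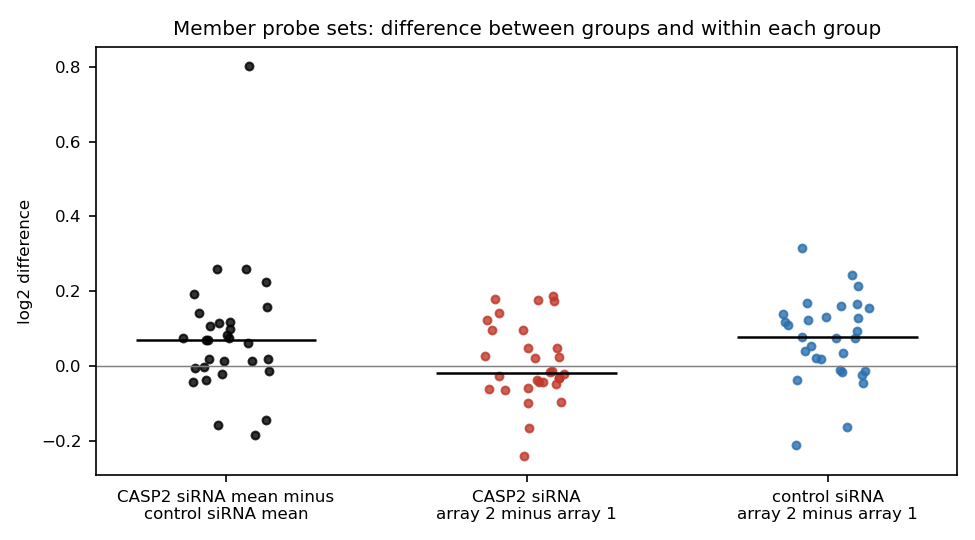
Log2 differences (y axis) of the 30 member probe sets between the group means, between the CASP2 siRNA arrays and between the control siRNA arrays (x axis), with each point 1 probe set and the line the median. The median between groups (0.069) is close to that between the control arrays (0.076), and the median between the CASP2 siRNA arrays is -0.02.

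The mevalonate segment turns acetyl-CoA into the isoprenyl unit. HMGCS1, the HMG-CoA synthase that commits acetoacetyl-CoA to the pathway, had log2 values of 10.32 and 10.41 in CASP2 siRNA cells, against 10.07 and 10.21 in control siRNA cells. The groups did not overlap, and the difference was 0.22 (SE 0.10, interval -0.055 to 0.50), or 0.16 to 0.29 with each array left out in turn. MVK, mevalonate kinase, had 8.89 and 9.07 in silenced cells, against 8.71 and 8.87 in control cells. Its lower silenced array barely exceeded the higher control array, and the difference was 0.19 (interval -0.12 to 0.51). It was 0.10 without CASP2 siRNA replicate 2, 0.11 without control siRNA replicate 1 and 0.28 without CASP2 siRNA replicate 1. IDI1, the isomerase that makes dimethylallyl diphosphate, had 10.33 and 10.30 in silenced cells, against 10.14 and 10.26 in control cells, again without overlap and with a difference of 0.12 (interval -0.15 to 0.38), or 0.054 without control siRNA replicate 1 and 0.18 without control siRNA replicate 2. PMVK, the kinase between MVK and MVD, ran the other way. It had 7.38 and 7.37 in silenced cells, against 7.60 and 7.44 in control cells, a difference of -0.15 (interval -0.42 to 0.13), or -0.063 without control siRNA replicate 1 and -0.23 without control siRNA replicate 2. ACAT2, the cytosolic thiolase at the entry, had 8.82 and 8.72 in silenced cells, against 8.60 and 8.77 in control cells, and overlapped at a difference of 0.084. MVD, the decarboxylase, overlapped at 0.017, with 9.18 and 9.15 in silenced cells, against 9.04 and 9.26 in control cells. In this segment 5 of 6 genes thus had values above 0, with a median of 0.0996, and none passed the adjusted test.

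Both prenyl synthases had the silenced arrays below the control arrays, as had PMVK and EBP among the enzymes and 15.1% of all probe sets. For FDPS and EBP the higher silenced array lay barely below the lower control array. FDPS, which makes farnesyl diphosphate for sterols, dolichol and prenylated proteins, had 8.46 and 8.49 in CASP2 siRNA cells, against 8.50 and 8.82 in control siRNA cells. The control arrays were 0.32 apart, the widest gap of any member, so the difference of -0.18 (interval -0.55 to 0.18) moved between -0.34 and -0.026 with 1 array left out. The value nearest 0 was that without control siRNA replicate 2. GGPS1, which extends farnesyl to geranylgeranyl diphosphate, had 6.68 and 6.51 in silenced cells, against 6.76 and 6.75 in control cells. Its difference was -0.16 (interval -0.44 to 0.12), or -0.077 without CASP2 siRNA replicate 2 and -0.24 without CASP2 siRNA replicate 1.

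**Figure D4:**
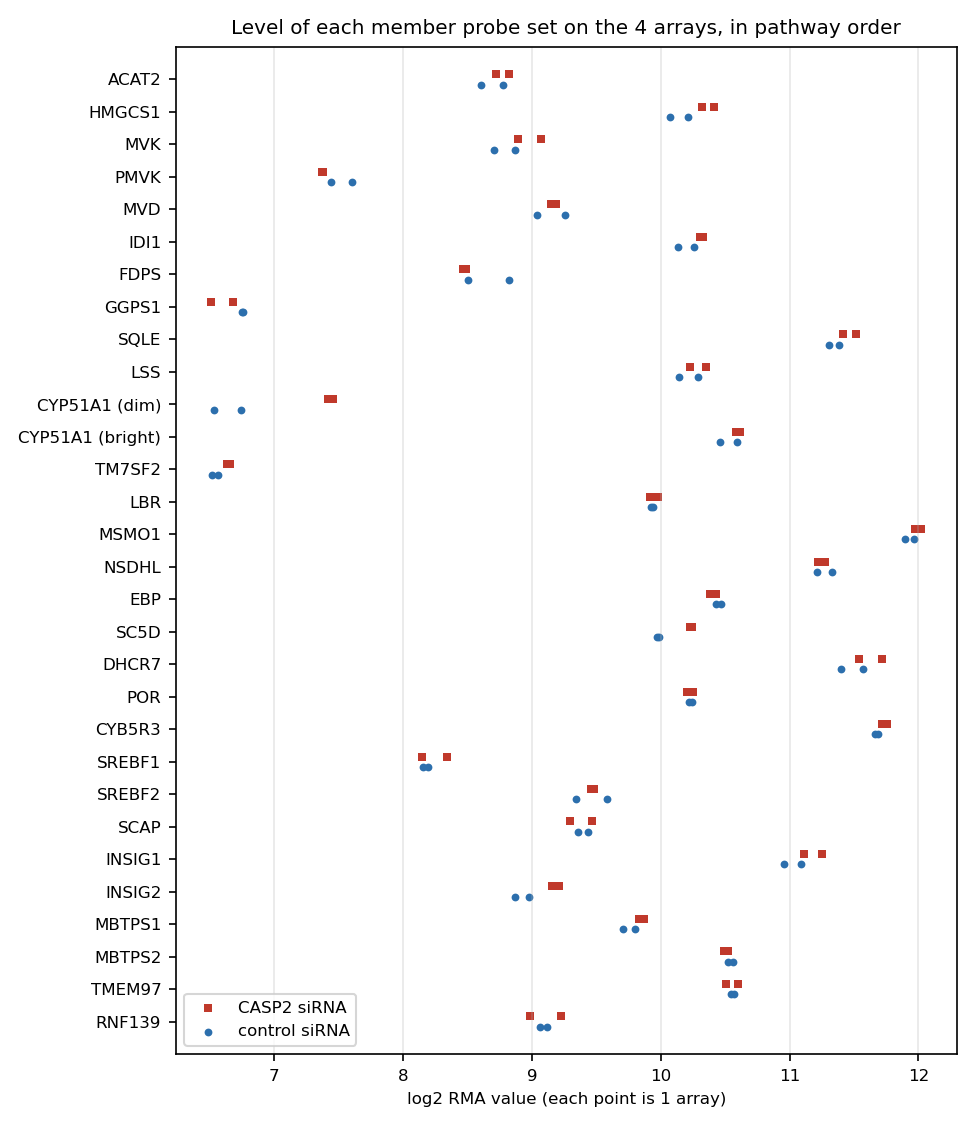
Log2 RMA value (x axis) of each member probe set (y axis, pathway order) on the CASP2 siRNA arrays (red squares) and the control siRNA arrays (blue circles), each point 1 array. All 30 probe sets lie above the median of every array, and apart from the dim CYP51A1 probe set the groups lie close together. Levels of different probe sets depend on their probes and are not compared with each other.

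All 30 member probe sets lay above the array median (6.18 to 6.28) on every array, and 23 lay above the upper quartile. Group means ran from 6.60 for GGPS1 to 11.999 for MSMO1 in CASP2 siRNA cells and from 6.54 for TM7SF2 to 11.93 for MSMO1 in control siRNA cells, values that depend on the probes of each set as well as on the RNA.

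The squalene steps were measured by SQLE and LSS. SQLE, squalene epoxidase, a rate-limiting oxygen-dependent enzyme, had 11.42 and 11.51 in CASP2 siRNA cells, against 11.31 and 11.38 in control siRNA cells. The groups did not overlap, at a difference of 0.12 (interval -0.14 to 0.38), or 0.07 without CASP2 siRNA replicate 2. LSS, which closes the sterol rings to lanosterol, overlapped, with 10.23 and 10.35 in silenced cells, against 10.14 and 10.29 in control cells, a difference of 0.074 (interval -0.22 to 0.37).

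CYP51A1, the lanosterol demethylase and first enzyme after ring closure, gave the only member probe set past the thresholds of the study. Its dim probe set had 7.46 and 7.42 in CASP2 siRNA cells, against 6.74 and 6.53 in control siRNA cells. Both silenced arrays lay well above both controls, at a difference of 0.80 (SE 0.11, interval 0.50 to 1.11), or 1.74-fold, with an adjusted limma p of 0.9999. The bright probe set had 10.59 and 10.61 in silenced cells, against 10.46 and 10.59 in control cells, and overlapped, at a difference of 0.074 (interval -0.19 to 0.34). The dim minus the bright value was -3.13 and -3.20 in silenced cells, against -3.72 and -4.06 in control cells. The gap between probe sets thus narrowed by 0.73 without overlap (exact two-sided permutation test, p = 0.33, the smallest for 2 against 2 arrays). With each array left out in turn this ranged from 0.56 to 0.90. In the annotation the bright probe set is tied to 1 accession and the dim one to 4, among them that of the bright one. Which transcripts each reads was not tested. From these same arrays the study listed CYP51A1 among the genes up-regulated past its 1.5-fold cut-off. By qRT-PCR in silenced U87MG cells it reported only a minimal rise of CYP51A1, without statistical significance. With the brightest probe set of each gene in place of all, 0 members passed the thresholds.

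**Figure D5:**
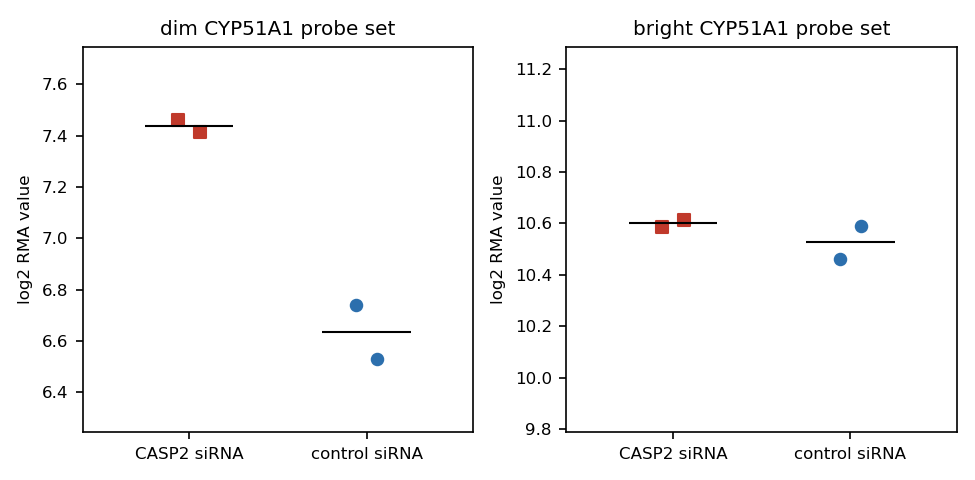
Log2 RMA value (y axis, the same span in both panels) of the dim and the bright CYP51A1 probe set on the CASP2 siRNA arrays (red squares) and control siRNA arrays (blue circles), with group means as lines. The dim probe set differs by 0.80 and the bright one by 0.074.

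The other sterol enzymes were flatter. TM7SF2 and LBR both encode sterol reductases that act after CYP51A1, LBR also being the lamin B receptor of the nuclear membrane. TM7SF2 had 6.63 and 6.66 in silenced cells, against 6.56 and 6.52 in control cells, a difference of 0.11 (interval -0.13 to 0.35) without overlap. LBR had 9.98 and 9.91 in silenced cells, against 9.92 and 9.94 in control cells, and overlapped at 0.012. MSMO1, the methylsterol oxidase, had 11.97 and 12.02 in silenced cells, against 11.89 and 11.97 in control cells, arrays that hardly separate at a difference of 0.07. NSDHL, the dehydrogenase that acts with it, overlapped at -0.023.

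Among the late enzymes SC5D, the lathosterol desaturase, had the tightest replicates. It had 10.24 and 10.23 in CASP2 siRNA cells, against 9.98 and 9.97 in control siRNA cells. The gap between groups was many times that within either, and the difference of 0.26 (SE 0.089, interval 0.022 to 0.50) kept to 0.25 to 0.27 whichever array was left out. It did not pass the adjusted limma test (adjusted p 0.9999), and its unadjusted p exceeded 0.05 with median centring, with the replicate block, with the methods' t-test and without either control array. DHCR7, the reductase that ends one branch of the pathway, had 11.54 and 11.72 in silenced cells, against 11.40 and 11.57 in control cells, and overlapped at 0.14 (interval -0.18 to 0.46), or 0.053 without CASP2 siRNA replicate 2 and 0.23 without CASP2 siRNA replicate 1. EBP, the sterol isomerase before SC5D, had 10.38 and 10.43 in silenced cells, against 10.43 and 10.46 in control cells, a difference of -0.043 (interval -0.29 to 0.20). The electron donors POR, the cytochrome P450 reductase that serves CYP51A1 and SQLE, and CYB5R3, the cytochrome b5 reductase that serves the desaturase and methylsterol oxidase steps, stood at -0.0032 and 0.062. CYB5R3 had 11.76 and 11.72 in silenced cells, against 11.68 and 11.67 in control cells, without overlap.

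The SREBP genes and SCAP overlapped between the groups. SREBF2, whose product is the main activator of cholesterol genes, had 9.49 and 9.46 in CASP2 siRNA cells, against 9.34 and 9.58 in control siRNA cells. The silenced arrays lay between the controls, at a difference of 0.012 (interval -0.31 to 0.33). SREBF1, whose products favour fatty acid synthesis, had 8.15 and 8.34 in silenced cells, against 8.15 and 8.20 in control cells, and overlapped at 0.069 (interval -0.22 to 0.36). SCAP, the escort, overlapped at -0.014, with 9.29 and 9.47 in silenced cells, against 9.36 and 9.43 in control cells.

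The retention factors had the largest differences of the control machinery. INSIG2, the form less tied to SREBP activity, had 9.21 and 9.15 in CASP2 siRNA cells, against 8.87 and 8.98 in control siRNA cells. The groups were clearly apart, at a difference of 0.26 (SE 0.098, interval -0.0019 to 0.52), and 0.20 to 0.31 with each array left out. INSIG1, itself an SREBP target and so a common readout of SREBP activity, had 11.11 and 11.25 in silenced cells, against 10.96 and 11.09 in control cells. Its groups were separated by a small margin, at 0.16 (interval -0.13 to 0.45). The difference was 0.087 without CASP2 siRNA replicate 2, 0.093 without control siRNA replicate 1 and 0.23 without CASP2 siRNA replicate 1. MBTPS1, the first protease of SREBP release, had 9.87 and 9.83 in silenced cells, against 9.71 and 9.80 in control cells, a difference of 0.098 (interval -0.15 to 0.35) without overlap, or 0.052 without control siRNA replicate 1. MBTPS2, the membrane protease of the next cut, had 10.52 and 10.49 in silenced cells, against 10.56 and 10.52 in control cells, a difference of -0.037 (interval -0.28 to 0.20). Its higher silenced array lay barely below its lower control array. TMEM97, an ER protein of the SREBP programme, and RNF139, an ER ubiquitin ligase with a sterol-sensing domain, overlapped at -0.006 and 0.018. Of the 7 genes of SREBP control, 3 had both silenced arrays above the controls, 1 had them below and 3 overlapped, where 14.5% of all probe sets lay above and 15.1% below, and none passed the adjusted test.

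Genes around the pathway were read by the brightest probe set of each. Of 10 SREBP targets of lipid synthesis, 5 had both silenced arrays below both controls (15.1% of all probe sets) and 0 above (14.5% of all), and 4 had a difference above 0 and 6 below, with a median of -0.074. Of the 19 probe sets of the cholesterol enzymes, 4 had both silenced arrays below and 8 above, and 14 had a difference above 0 and 5 below, with a median of 0.074. The difference between these lists was not tested. ACLY, which supplies cytosolic acetyl-CoA to both pathways, had 11.61 and 11.57 in CASP2 siRNA cells, against 11.81 and 11.82 in control siRNA cells, a difference of -0.22 (interval -0.46 to 0.015). SCD, the stearoyl-CoA desaturase, had 11.99 and 12.09 in silenced cells, against 12.14 and 12.29 in control cells, a difference of -0.17 (interval -0.46 to 0.11), or -0.10 without control siRNA replicate 2. ACSS2, an acetyl-CoA synthetase, stood at -0.14. All 3 had both silenced arrays below the controls.

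Among 13 SREBP cofactors and factors of export and turnover the median was -0.0023. NFYB, a subunit of the CCAAT-binding NF-Y, had 6.69 and 6.59 in CASP2 siRNA cells, against 6.96 and 7.03 in control siRNA cells. The groups were well apart, at a difference of -0.36 (interval -0.62 to -0.0995), and it was the only gene of the 5 lists with an unadjusted limma p under 0.05 (3.03% of all probe sets). That p exceeded 0.05 without either control array and with the eBayes trend and robust options, under which those of ACLY, SCD and ERLIN1 lay under 0.05. FBXW7, the ubiquitin ligase subunit that marks nuclear SREBPs for breakdown, had 6.82 and 6.31 in silenced cells, against 6.88 and 6.92 in control cells, a difference of -0.34 (interval -0.85 to 0.17). Without CASP2 siRNA replicate 2 it was -0.085, and without CASP2 siRNA replicate 1 it was -0.59. KPNB1, the importin that carries SREBP into the nucleus, stood at 0.13 (interval -0.14 to 0.39).

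The ER degradation list, which acts on sterol enzymes and INSIG, had 9 measured genes of 11, 2 of them with a difference above 0 (50.7% of all probe sets) and 7 below, and a median of -0.04. ERLIN1, a cholesterol-binding scaffold, had 11.13 and 11.15 in CASP2 siRNA cells, against 11.29 and 11.28 in control siRNA cells, a difference of -0.14 (interval -0.38 to 0.093) without overlap. Its partner ERLIN2 and UFD1, a cofactor of the extracting ATPase, overlapped at -0.11 and -0.052. Of the isoprenoid branches 12 of 13 genes were measured, with a median of 0.015. Both silenced arrays lay above both controls in 0 of them (14.5% of all probe sets) and below in 1 (15.1% of all), and 11 overlapped. PGGT1B, of geranylgeranyl transfer, and PDSS2, of ubiquinone side chain synthesis, overlapped at 0.12 and -0.047, and RABGGTA, the Rab geranylgeranyl transferase subunit, stood at -0.11 with both silenced arrays below the controls. The electron carriers CYB5A and CYB5B and the scaffold ERG28 stood at 0.032, 0.023 and 0.019. In all 5 lists 0 genes passed the thresholds of the study or the adjusted limma test.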

How the data were processed

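Total RNA of U87MG cells was hybridized to 4 Affymetrix arrays, 2 per group. The authors applied RMA (no version stated) and deposited log2 values for 32321 probe sets. RMA equalizes probe values between arrays, which removes a shift of all genes. The number of arrays limits the precision. Genes were named from the platform annotation and updated by gene ID through RefSeq (GRCh38.p14, 19128 of 19158 probe sets with 1 symbol). The other 1388 (several symbols) and 11775 (no symbol) entered the fit unnamed.

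Groups came from the sample titles. The fit used limma 3.58.1 in R 4.3.3 (lmFit, eBayes, two-sided, 2.47 prior and 2 residual degrees of freedom) and adjusted by Benjamini-Hochberg over all probe sets, with intervals of 95%. The fit was tested on simulated data with independent noise and the same spread in both groups. That simulation does not cover the wider spread found between the CASP2 siRNA arrays. All members and CASP2 were named, and in each further list the 3 genes with the largest absolute difference. Members and lists were chosen with earlier results of these data known. Alternatives were other eBayes options, quantile normalization, median centring, a replicate block and each array left out. Others were the brightest probe set per gene, the methods' t-test, folds of linear means and dropping the lower 25% of probe sets by mean value. All 30 member probe sets, the dim CYP51A1 one included, stayed in under that last setting. Protein sequences were not used here.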

Additional observations from a re-analysis of the deposited data

How the results depend on the processing

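CASP2 stayed lower and past the thresholds of the study under every alternative run for it, at -2.20 to -1.93. The methods' t-test was run for the counts of probe sets and not for CASP2 alone. The 1 member probe set past these thresholds was the dim CYP51A1 one, and it was 0 with the brightest probe set of each gene. The members with an unadjusted p under 0.05, 2 in all, were 4 with eBayes trend and robust options, and 1 with median centring, with the replicate block, with the methods' t-test and with the brightest probe set of each gene. They were 3 with quantile normalization, where 1188 of all 32321 probe sets lay under 0.05, against 979 in the main setting. Counts of members with 1 array left out are not compared, because the number of all probe sets under 0.05 changed with the array dropped. The probe sets past the thresholds over the whole table numbered 224 and were 72 with the methods' t-test and 275 to 990 with each array left out, with 990 without CASP2 siRNA replicate 1, 638 without CASP2 siRNA replicate 2 and 379 without control siRNA replicate 1. The share of these calls that were higher was 107 of 224 in the main setting and 414 of 638 without CASP2 siRNA replicate 2. The median of the members ranged from 0.0087 without control siRNA replicate 1 to 0.12 without control siRNA replicate 2, and it was 0.069 without the dim CYP51A1 probe set, an alternative chosen after seeing the data. The members above 0, 21 of 30, were 24 with quantile normalization and 17 with median centring, under which 44.2% of all probe sets lay above 0.

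With the replicate block the CASP2 difference was -2.06, and 302 probe sets passed the thresholds. The titles number the replicates and name no pairing between the groups. Over all probe sets the deviations of same-numbered arrays correlated with r = 0.02. That value covers the whole table and does not settle whether same-numbered arrays shared a shift in single genes or in the members, which was not tested.

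Signs near 0 were not settled. With median centring MVD was at -0.0026, LBR at -0.0075, SREBF2 at -0.0080, RNF139 at -0.0016 and ERG28 at -0.0010. With quantile normalization POR was at 0.017, SCAP at 0.012 and TMEM97 at 0.0019. With each array left out, ACAT2 ranged from -0.00012 to 0.17, MVD from -0.090 to 0.12, LSS from -0.0026 to 0.15, LBR from -0.020 to 0.044, NSDHL from -0.081 to 0.036, POR from -0.027 to 0.021, SREBF1 from -0.025 to 0.16, SREBF2 from -0.11 to 0.13, SCAP from -0.1002 to 0.072, TMEM97 from -0.054 to 0.042 and RNF139 from -0.102 to 0.14. In the further lists PGGT1B ranged from -0.030 to 0.27, PDSS2 from -0.19 to 0.094, ERLIN2 from -0.26 to 0.032, UFD1 from -0.13 to 0.024, CYB5A from -0.057 to 0.12 and CYB5B from -0.027 to 0.073. The other 19 member probe sets kept their sign under every alternative. The cause of these moves was not tested. An array left alone in its group is assumed to vary like the other group.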
